A study of Mus musculus with 3 samples.

Results

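Polycomb repressive complex 1 (PRC1) genes were described across genome-wide binding maps of Smad3 and JMJD3 in mouse neural stem cells. The 9 genes were Cbx2, Cbx6, Cbx7, Cbx8, Ring1, Rnf2, Bmi1, Pcgf3 and Phc3, out of 20953 protein-coding genes considered. They were chosen by name, and the peaks described are those that name one of them as the closest gene, plus every peak centred within 50 kb of one of their transcription start sites (TSS). That gave 106 of 98086 Smad3 peaks and 52 of 63154 JMJD3 peaks. The cells were wild-type neural stem cells from the cerebral cortex of embryos at E12.5, kept in EGF at 20 ng/ml and FGF at 10 ng/ml. Both maps came from cells given TGFb at 5 ng/ml for 30 minutes, with 1 library for the Smad3 antibody and 1 for the JMJD3 antibody. An input library without antibody is named in the labels and was not analysed here. Every library carries the TGFb label, so no value below shows an effect of TGFb, and with 1 library per antibody no value has a replicate error or a test. The files list peak positions without heights or read numbers, and the sequencing depth under a peak is therefore not known.

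PRC1 is a chromatin-bound ubiquitin ligase for histone H2A that keeps genes silent during development. Its catalytic core pairs a RING protein (RING1 or RNF2) with a PCGF protein such as BMI1 or PCGF3, and in canonical complexes a CBX chromodomain protein reads trimethylated histone H3 lysine 27 while a PHC protein links complexes together. JMJD3 removes methyl groups from that same lysine, and Smad3 carries the TGF-beta signal to DNA. BMI1 is known for sustaining self-renewal of neural stem cells through repression of the Cdkn2a locus.

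The promoter sequences of 4 members are shown because they share a 6-base element, the palindromic E-box CACGTG, which is printed in capitals. Each is the 250 bases before the gene start, 5′ to 3′ on the gene's strand, from RefSeq on GRCm38.p6, a later build than the mm9 peak files. The positions are chr11:119040914-119041163 for Cbx8, chr15:79834334-79834583 for Cbx6 and chr3:30969416-30969665 for Phc3, all on the minus strand, and chr2:18676768-18677017 on the plus strand for Bmi1. The gene span has the same length in both builds for Cbx6 and Bmi1 and differs by 64 bp for Phc3 and 2133 bp for Cbx8, so the start of these last genes may not be the one used in the peak files. In the Cbx8 sequence the second run of capitals is the cyclic AMP response element TGACGTCA.
Cbx8: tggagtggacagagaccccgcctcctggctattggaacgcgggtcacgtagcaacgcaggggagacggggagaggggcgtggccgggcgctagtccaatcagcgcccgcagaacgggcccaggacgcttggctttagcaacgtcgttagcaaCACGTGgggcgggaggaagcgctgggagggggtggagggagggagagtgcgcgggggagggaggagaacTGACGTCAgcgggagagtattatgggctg
Cbx6: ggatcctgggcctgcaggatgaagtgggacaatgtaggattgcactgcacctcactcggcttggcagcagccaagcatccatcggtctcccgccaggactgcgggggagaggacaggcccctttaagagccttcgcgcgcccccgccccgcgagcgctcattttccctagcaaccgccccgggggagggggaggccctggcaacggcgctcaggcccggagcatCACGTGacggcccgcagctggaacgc
Bmi1: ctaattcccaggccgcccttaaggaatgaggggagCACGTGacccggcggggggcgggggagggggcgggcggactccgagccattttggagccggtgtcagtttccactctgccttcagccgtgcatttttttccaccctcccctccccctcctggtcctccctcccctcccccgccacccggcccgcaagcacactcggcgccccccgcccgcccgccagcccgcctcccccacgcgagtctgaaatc
Phc3: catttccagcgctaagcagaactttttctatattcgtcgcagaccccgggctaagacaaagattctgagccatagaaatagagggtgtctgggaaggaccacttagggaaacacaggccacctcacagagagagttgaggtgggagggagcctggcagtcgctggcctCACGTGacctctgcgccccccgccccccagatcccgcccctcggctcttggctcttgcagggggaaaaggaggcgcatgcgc

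The sequence table held a promoter for 8 of the 9 members, all but Cbx2. The E-box CACGTG occurred in 4 of the 8, starting 98 bases before the gene start in Cbx8, 26 in Cbx6, 215 in Bmi1 and 82 in Phc3. Over promoters of the same length, it occurred in 6.02% of all 32851 in the table and in 8.31% of the 11865 that belong to coding genes with a Smad3 promoter peak. The E-box was picked after the sequences had been seen, so its count is a description. A Smad box, CAGAC on either strand, also occurred in 4 of 8. Rnf2 had 3 copies, Phc3 had 2, and Cbx7 and Bmi1 had 1 each. Of promoters of Smad3-bound coding genes, 40.0% hold a Smad box. Such a gene can have more than 1 promoter in this set, and not each need carry the peak. The 8-base Smad palindrome GTCTAGAC occurred in 0 of 8 members and in 0.202% of promoters of Smad3-bound coding genes. TGACGTCA occurred in Cbx8 alone of the 8 (2.65% of promoters of Smad3-bound coding genes). Its first 6 bases, TGACGT, also occurred in Ring1 (9.88%). The GC box GGGCGG occurred in 7 of 8, all but Pcgf3, against 59.2%. CpG counts ran from 12 in Phc3 to 30 in Ring1, with a median of 10 over 20418 coding promoters. Those counts lay at the 54.9 percentile of coding promoters for Phc3 and the 92.6 percentile for Ring1. This background is all coding promoters and not only those of genes with a Smad3 peak. A matched motif shows only that the letters are present.

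All 9 genes had a Smad3 peak centred within 1 kb of the TSS, and 8 had a JMJD3 peak there too. Over all coding genes the corresponding shares were 55.0% for Smad3, 43.3% for JMJD3 and 41.9% for both. Phc3 was the member without JMJD3. Since the genes were proposed with earlier results of these data known, the counts are not independent evidence that PRC1 genes stand apart. Peaks of the same list at most 10 bp apart were joined into regions, whose width is used below in place of a peak height. Smad3 promoter regions were 640 to 1751 bp wide at the members, with a median of 1030 bp, against a median of 760 bp over 11524 bound coding genes. JMJD3 regions were 640 to 1560 bp wide at 8 members, with a median of 940 bp, against 860 bp over 9077 bound coding genes.

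**Figure D1:**
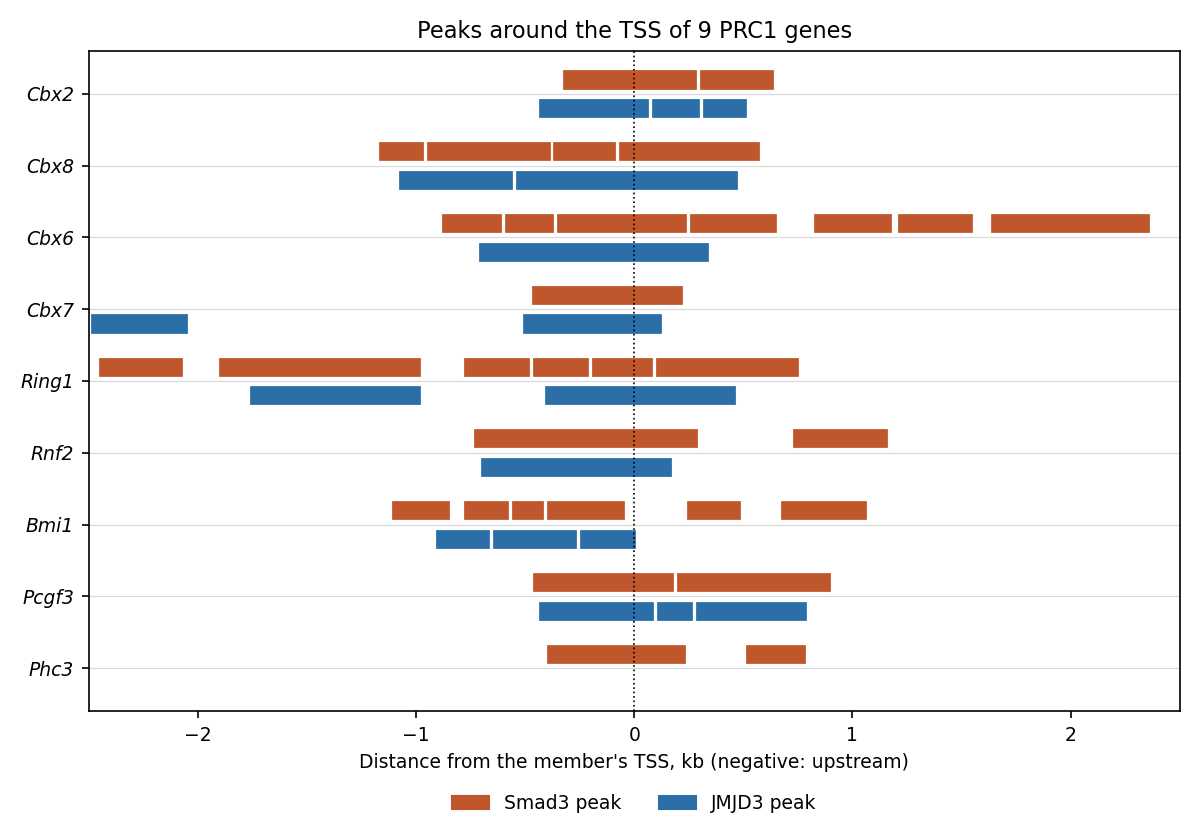
Smad3 peaks (orange) and JMJD3 peaks (blue) around the TSS of the 9 genes, with distance in kb on the x axis and upstream to the left. Each box is 1 peak drawn to scale. Smad3 boxes are present in every row, and JMJD3 boxes are missing at Phc3.

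Among the chromodomain subunits, which read the methylated histone tail, Cbx8 had the widest promoter regions of both factors. Its Smad3 region measured 1751 bp (mm9 chr11:118901651-118903401), at the 96.5 percentile of Smad3 regions at bound coding genes. The JMJD3 region at Cbx8 measured 1560 bp (chr11:118901751-118903310), at the 93.1 percentile of JMJD3 regions, and lay wholly inside the Smad3 region. At Cbx6 Smad3 covered 1540 bp (chr15:79664111-79665650, 94.0 percentile) and JMJD3 covered 1060 bp (chr15:79664421-79665480, 70.5 percentile). At Cbx6 the Smad3 signal also ran on into the gene, with regions of 361, 350 and 730 bp centred 1002, 1378 and 1998 bp downstream of the TSS, none of which met a JMJD3 peak.

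Cbx2 and Cbx7 had narrower regions, with the factors nearly equal in width. At Cbx2 Smad3 covered 971 bp (chr11:118884011-118884981, 71.7 percentile) and JMJD3 960 bp (chr11:118883901-118884860, 61.7 percentile). At Cbx7 they were 700 bp (chr15:79762851-79763550, 43.2 percentile) and 640 bp (chr15:79762951-79763590, 21.8 percentile). The Cbx7 regions were thus the narrowest of the 4 chromodomain genes for each factor, and its JMJD3 region was the narrowest of all 8 members that had one.

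The catalytic RING genes differed in their Smad3 regions and not in their JMJD3 regions. Ring1 had a Smad3 region of 1541 bp (chr17:34160871-34162411, 94.1 percentile) and Rnf2 one of 1030 bp (chr1:153347661-153348690, 75.8 percentile). The JMJD3 region was 880 bp wide at both, on chr17:34161161-34162040 for Ring1 and chr1:153347781-153348660 for Rnf2 (52.8 percentile). Ring1 therefore had the lowest ratio of JMJD3 to Smad3 width among the members, 0.571. That ratio rests on the joining of peaks. The Ring1 Smad3 region joined 4 peaks, of which 2 named Ring1 and the rest named a microRNA gene described below. Rnf2, also called Ring1B, had a further Smad3 peak of 441 bp centred 942 bp inside the gene with no JMJD3 peak on it.

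The Smad3 and JMJD3 regions at Ring1 also reached over the start of a microRNA gene. Mir219-1, named Mir219a-1 in RefSeq, starts 412 bp upstream of Ring1 on the same strand, and both the 1541 bp Smad3 region and the 880 bp JMJD3 region span the start of each gene. The JMJD3 region just reached the start of Mir219-1 at 34162037, ending at 34162040. A further JMJD3 region of 790 bp (chr17:34162601-34163390) named Mir219-1 as its closest gene. It overlapped a Smad3 region of 930 bp (chr17:34162601-34163530) that named the same gene. The mature 5p microRNA of this gene is abundant in the oligodendrocyte lineage. It is printed from RefSeq with its seed, bases 2 to 8, in capitals.
mmu-miR-219a-5p: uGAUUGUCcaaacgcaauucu

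The PCGF genes encode the partners that activate the RING ligase. Pcgf3 belongs to the variant complexes that lack a CBX protein. Smad3 covered 1370 bp at its promoter (chr5:108889881-108891250, 90.6 percentile) and JMJD3 1230 bp (chr5:108889911-108891140, 81.9 percentile), and the regions shared 89.8% of their joint length, the most among the members. At Bmi1 alone among the members, the widest Smad3 promoter region did not cover the TSS. Its 6 Smad3 promoter peaks fell into separate regions, as the Smad3 promoter peaks of Rnf2 and Phc3 also did. The widest region at Bmi1, 740 bp (chr2:18597861-18598600, 47.7 percentile), ended 44 bp upstream of the TSS. Of the 250 promoter bases printed above for Bmi1, that region covered 207 and the JMJD3 region all 250, on the reading that the TSS is the same in both builds, where the gene span has the same length of 9612 bp. Its JMJD3 region of 920 bp (chr2:18597731-18598650, 57.3 percentile) ended 6 bp past the TSS. Smad3 peaks of 251 and 400 bp followed 362 and 866 bp downstream with no JMJD3 peak. Bmi1 was the 1 member of 8 whose JMJD3 region was wider than its widest Smad3 region, by 1.24-fold. That order rests on the joining distance, since the same promoter site held 1010 bp of Smad3 in 2 neighbouring regions against 920 bp of JMJD3.

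Phc3, a Polyhomeotic subunit that joins PRC1 complexes through its SAM domain, had Smad3 alone. Its Smad3 promoter region was 640 bp wide (chr3:30868101-30868740, 35.7 percentile), the narrowest of the 9, and a second Smad3 region of 281 bp lay 646 bp inside the gene. No peak in the JMJD3 list named Phc3 as its closest gene. The 1 JMJD3 peak within 50 kb lay at the promoter of Prkci, which encodes an atypical protein kinase C, 26355 bp upstream of the Phc3 TSS. There Smad3 covered 970 bp and JMJD3 900 bp.

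At the 8 genes with both factors the paired regions overlapped to a varying extent. They shared from 57.1% of their joint length at Ring1 to 89.8% at Pcgf3, with a median of 80.8%, against a median of 71.6% over 8780 coding genes with both. Ring1 and Cbx6 (68.8%) lay below that wider median. The JMJD3 region lay wholly inside the Smad3 region at 5 of the 8. The JMJD3 region was narrower than the Smad3 region at 7 of the 8, whereas over the 8780 genes it was the wider of the pair in 58.2%. The median ratio of JMJD3 to Smad3 width was 0.894 at the members. With the widest single promoter peak in place of the joined region, the order of the medians turned, to 651 bp for Smad3 and 760 bp for JMJD3. These proportions describe 8 genes chosen together and carry no test.

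**Figure D2:**
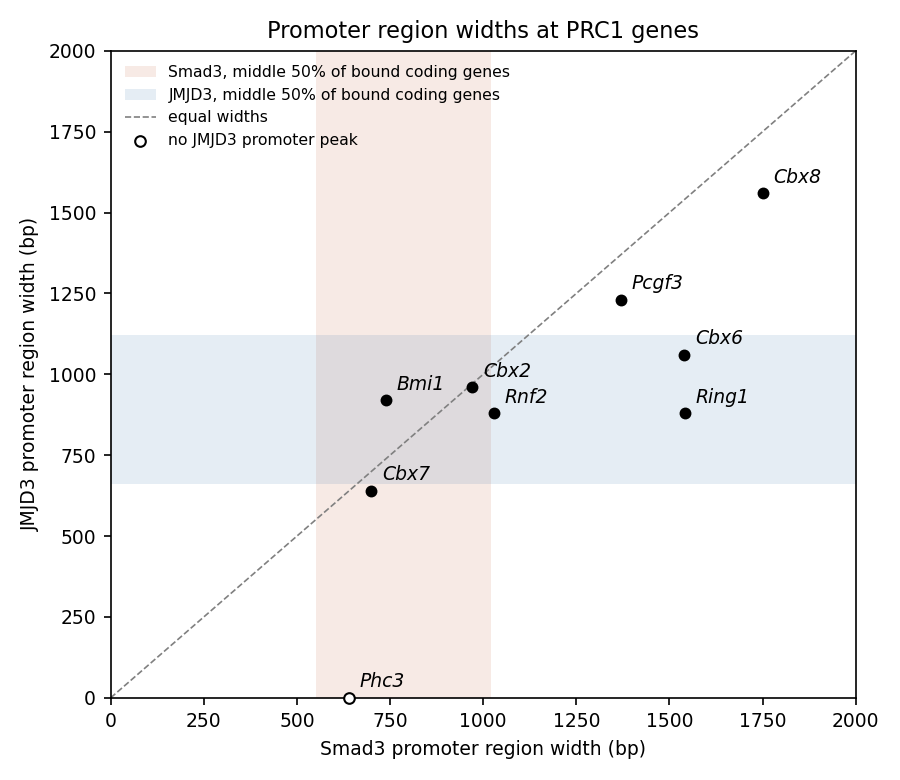
Width of the Smad3 promoter region (x axis, bp) against that of the JMJD3 promoter region (y axis, bp) at each gene. Shaded bands hold the middle 50% of widths over bound coding genes and the dashed line marks equal widths. Points for 7 genes lie below the line, Bmi1 lies above it, and the open point is Phc3, which has no JMJD3 promoter peak.

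Away from promoters, sites assigned by closest gene fell mostly to the chromodomain genes. Joining Smad3 and JMJD3 regions that meet gave 24 distal sites that name a member as closest gene, 8 of them inside that gene's transcript span. Of these 24, 9 held both factors, 11 Smad3 alone and 4 JMJD3 alone. The shares were 37.5%, 45.8% and 16.7%, against 41.0%, 47.7% and 11.3% of the 36366 distal sites within 50 kb of any TSS in the series. All 11 sites with Smad3 alone belonged to Cbx8 and Cbx6. This rests on the 1 kb limit. The nearest of them at Cbx6 was centred 1002 bp from the TSS, while Smad3-only sites centred 942 bp inside Rnf2 and 866 bp inside Bmi1 counted as promoter sites. Ring1, Pcgf3 and Phc3 had no distal site of their own. Assignment by name depends on how close other genes start. More than 1 kb from its TSS, the Ring1 window held 17 Smad3 and 7 JMJD3 peaks, 0 of them naming Ring1. All 7 of these JMJD3 peaks and most of the Smad3 peaks lay within 1 kb of another gene's TSS. Window counts thus include promoter peaks of neighbours. Counted the same way, Bmi1 had 10 and 5, part of them at the Commd3 promoter. The chromodomain genes had 28 and 12 (Cbx8), 19 and 8 (Cbx2), 14 and 3 (Cbx6) and 11 and 10 (Cbx7). The Cbx2 and Cbx8 windows overlap, and most of the peaks counted here for Cbx2 name Cbx8.

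Cbx7 had a chain of shared sites upstream. Of its 6 distal sites, 5 held both factors and 0 Smad3 alone. They were centred 8530, 17960, 19654 and 28955 bp upstream of the TSS and 4716 bp downstream, inside the gene. These places hold for the peak files, where Cbx7 spans 16840 bp. It spans 55340 bp in RefSeq on GRCm38.p6. Which end differs was not examined, so sites called upstream here may lie inside the longer span. The site 19654 bp upstream (chr15:79782111-79783350) carried 1110 bp of Smad3 and 1130 bp of JMJD3, each wider than the region of the same factor at the Cbx7 promoter. The sixth site, 450 bp wide and 2270 bp upstream, held JMJD3 alone. In all, 8 Smad3 peaks and 10 JMJD3 peaks named Cbx7, where the median over coding genes named in each list was 3.

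At Cbx8 most distal sites held Smad3 alone, 7 of 9, with widths from 140 to 480 bp. The remaining 2 held both factors and were wider. The first spanned 2130 bp (chr11:118913741-118915870) centred 12578 bp upstream of Cbx8, with 1991 bp of Smad3 regions and 1370 bp of JMJD3 region. The second spanned 1110 bp (chr11:118895271-118896380) between Cbx2 and Cbx8, beginning 2687 bp past the end of the Cbx2 transcript. Cbx2 and Cbx8 start 17885 bp apart on chromosome 11, so their windows overlap and 1 locus stands behind both genes. Cbx2 itself had 1 distal site, 3338 bp inside the gene, with both factors.

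The remaining members with distal sites had few. Cbx6 had 4 sites with Smad3 alone, from 1002 to 8978 bp downstream of the TSS, and a JMJD3 region of 550 bp alone 22822 bp upstream. Rnf2 had JMJD3 alone at 5958 bp downstream and 13672 bp upstream, with regions of 390 and 450 bp. Bmi1 had a single shared site 4182 bp inside the gene, where Smad3 covered 700 bp and JMJD3 620 bp. Thus the 4 distal sites with JMJD3 alone lay at Rnf2, Cbx6 and Cbx7.

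**Figure D3:**
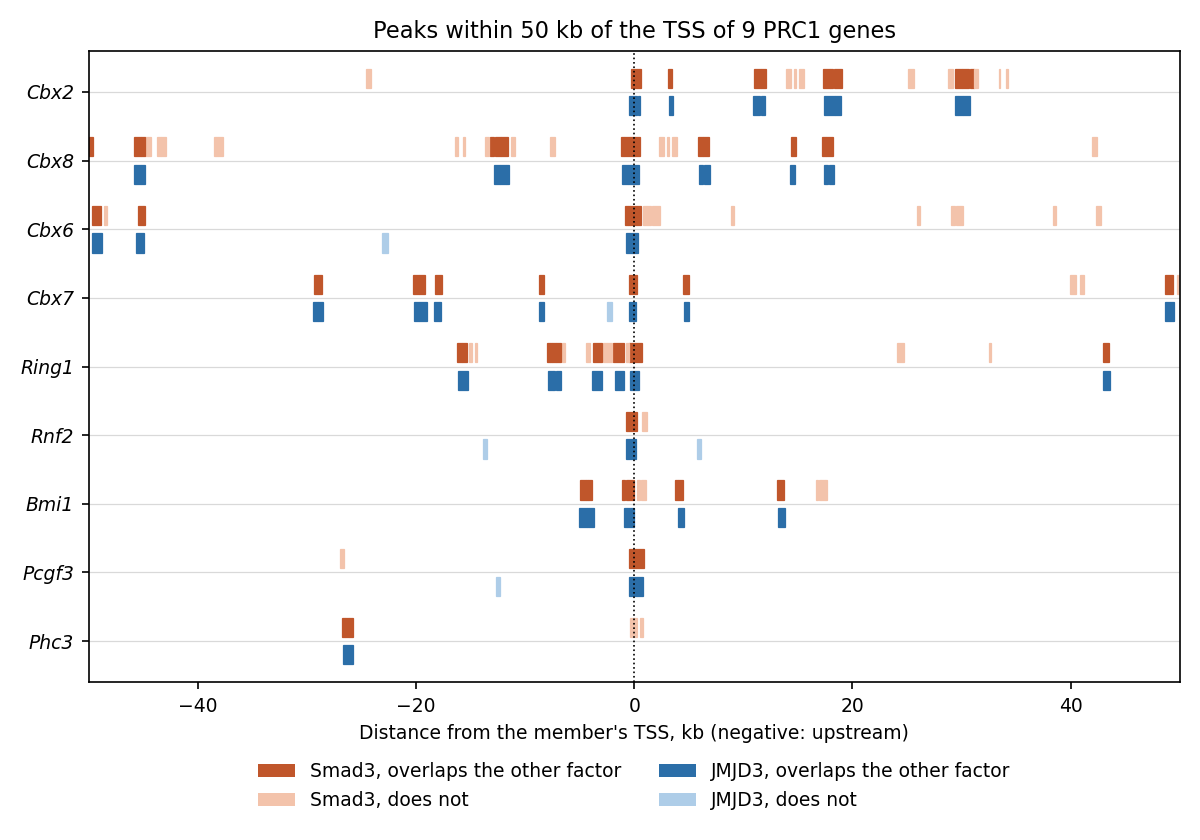
Peaks within 50 kb of each TSS, with distance in kb on the x axis, Smad3 in the upper track and JMJD3 in the lower track of each row. Dark boxes overlap a peak of the other factor and pale boxes do not. Dark pairs line up upstream of Cbx7, and the rows of Rnf2, Pcgf3 and Phc3 are nearly empty outside the promoter. Pale Smad3 boxes lie on both sides of Cbx8 (16) and mainly downstream of Cbx6 (11), and the rows of Cbx2 and Ring1 hold 9 each.

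The number of peaks per window varied widely among the genes. Smad3 peaks within 50 kb numbered 31 at Cbx8, 21 at Cbx2 and Ring1, 18 at Cbx6, 16 at Bmi1, 12 at Cbx7, 5 at Phc3, 3 at Pcgf3 and 2 at Rnf2. The median over 15353 coding genes named in the lists was 7. JMJD3 peaks numbered 14 at Cbx8, 11 at Cbx2 and Cbx7, 8 at Ring1 and Bmi1, 4 at Cbx6 and Pcgf3, 3 at Rnf2 and 1 at Phc3, with a median of 5. Rnf2 and Pcgf3 were the members with more JMJD3 than Smad3 peaks. Because windows of neighbours overlap, 23 Smad3 and 12 JMJD3 peaks were counted for 2 genes.

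Most JMJD3 peaks near these genes lay on Smad3. Of the 52, 47 overlapped a Smad3 peak (90.4%, exact Clopper-Pearson 95% interval 79.0 to 96.8, counting error only), against 81.4% of the whole list. Of the 106 Smad3 peaks, 58 overlapped JMJD3 (54.7%, 44.8 to 64.4), against 60.2%. The windows end at 50 kb by rule while the whole lists include peaks farther from any TSS, so the shares were also taken among peaks within 1 kb of some TSS. There, 29 of 30 JMJD3 peaks overlapped Smad3 (96.7%, against 93.4%), and 35 of 55 Smad3 peaks overlapped JMJD3 (63.6%, against 70.9%). Each interval for the windows included the share of the whole list in the same distance class. That is a description and not a test, since peaks of 1 locus are not replicates. The 106 Smad3 peaks formed 69 regions and the 52 JMJD3 peaks 35, and the intervals treat every peak as independent.

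Several windows took in promoters of other genes. Upstream of Bmi1, the Commd3 promoter lay 4556 bp away with 1090 bp of Smad3 and 1370 bp of JMJD3. Around Ring1, the promoters of H2-Ke6, Slc39a7, Rxrb, Col11a2 and AA388235 had both factors, and H2-K1, a class I histocompatibility gene, had Smad3 alone. Slc39a7 and Rxrb, which start 7010 and 7171 bp upstream of Ring1, shared 1 Smad3 region of 1720 bp and 1 JMJD3 region of 1191 bp. Smad3 alone was listed at the promoters of Nptxr near Cbx6, Apobec3 near Cbx7 and Atp5k near Pcgf3, and JMJD3 alone at Mfsd7a, 12440 bp upstream of Pcgf3. The 54 Smad3 and 18 JMJD3 peaks of the windows that name another gene include these.

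Of 23 other PRC1 genes, 18 had a Smad3 promoter peak, 16 a JMJD3 promoter peak and 16 both. The shares over all coding genes were 55.0%, 43.3% and 41.9%. Their median widths were 725.5 bp for Smad3 and 825.5 bp for JMJD3, and JMJD3 was the narrower of the pair at 4 of 16. The widest Smad3 regions lay at Phc2 (1240 bp), a Polyhomeotic paralog of Phc3, and Pcgf2 (1120 bp), the closest relative of Bmi1. The narrowest lay at Pcgf6 (360 bp) and Scmh1 (400 bp). The widest JMJD3 regions lay at Fbrsl1 (1510 bp) and Rybp (1370 bp), which replaces CBX proteins in variant complexes, and the narrowest at Bcor (510 bp) and Mga (540 bp).

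Like Phc3, Pcgf6 and E2f6 had Smad3 without JMJD3, and 0 of the 23 had JMJD3 without Smad3. Neither factor was listed within 1 kb at Phc1, Pcgf5, Bcorl1, Scml2 and Fbrs. The nearest Smad3 peak of Phc1, the third Polyhomeotic gene, lay 2422 bp upstream, and the list held no JMJD3 peak that named it. Of the Polyhomeotic genes, therefore, Phc2 alone had both factors at its promoter, with a JMJD3 region of 980 bp.

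The complex that writes H3K27 methylation, PRC2, had both factors at 11 of 11 genes, against 41.9% of all coding genes. Median widths were 871 bp for Smad3 and 820 bp for JMJD3. Eed, the subunit that reads the finished mark, had the widest Smad3 region at 1240 bp. Ezh2, the methyltransferase, had the widest JMJD3 region at 1991 bp, wider than at any of the 9 PRC1 genes. JMJD3 was the narrower of the pair at 4 of 11 PRC2 genes.

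**Figure D4:**
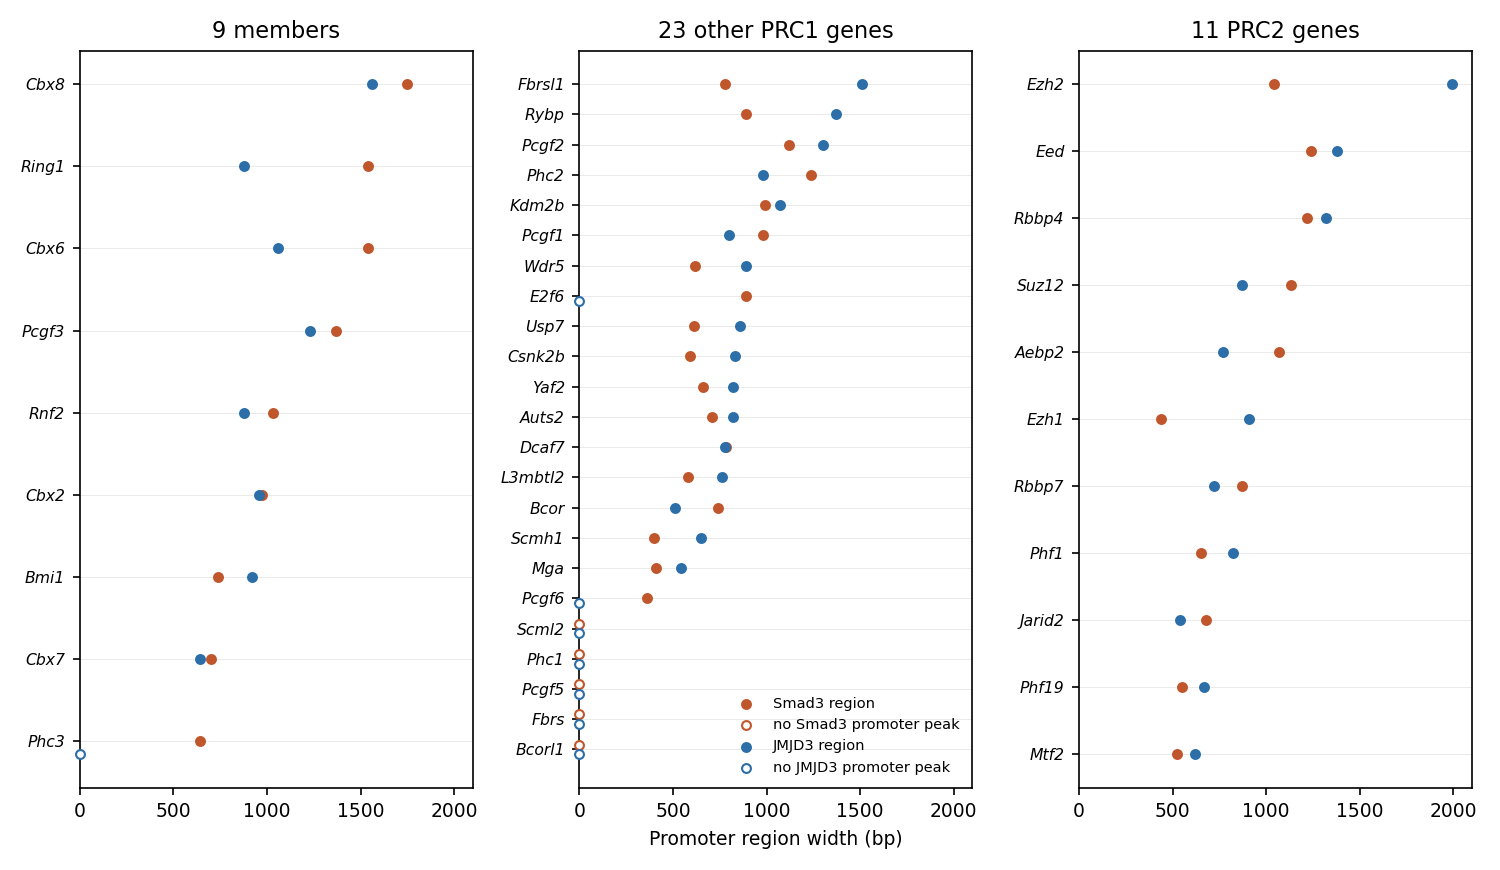
Promoter region width in bp (x axis) for Smad3 (orange) and JMJD3 (blue) at the 9 genes described here, 23 other PRC1 genes and 11 PRC2 genes. Open points at 0 mark genes with no promoter peak of that factor. Orange lies right of blue at 7 of the first 9 genes and at 4 of the 16 other PRC1 genes with both factors.

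The labelled cell type was compared with promoter peaks at marker genes, which do not measure expression. The progenitor markers Nes, Sox2, Pax6, Fabp7 and Vim had both factors at 5 of 5. Of 9 markers of neurons, oligodendrocytes, microglia and endothelium, 2 had promoter peaks, Tubb3 and Kdr, each with both factors. Among all coding genes, 41.9% had both.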

How the data were processed

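The deposited files, 1 per library, list peaks by position with the signed distance in bp from the closest RefSeq TSS to the peak's midpoint, other columns naming that gene. Per the submitters' processing notes, CASAVA, Bowtie 0.12.7 and MACS 1.4 were used with build mm9. Their settings and the role of the input are not given in the sources that were used, and the authors deposited no height, fold, p-value or count in these files, so region width, an imperfect stand-in, was used. Peaks at most 10 bp apart within a list were joined. A promoter peak names the gene as closest and has its midpoint within 1 kb of the TSS. Lists overlapped where peaks shared at least 1 bp. The background was 20953 coding genes with a curated mRNA in a RefSeq table of GRCm38.p6. RefSeq was matched by Entrez ID (16331 of 16428 named genes, all 9 members) and used for names and promoter sequences. Of the background genes, 15353 were named as closest to a peak. Joining and overlap were tested on simulated data. Scripts used Python 3.11.15 with pandas 2.3.3, numpy 2.4.6 and scipy 1.17.1.

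All 9 members were named, neighbours with a promoter peak in a window, and from other PRC1 genes the widest and narrowest 2 per factor and those with no promoter peak. A further gene of that list is not reported here. PRC2, H2A deubiquitinase and HP1 genes are given as counts with the widest of each. E2f6, Asxl2, Asxl3 and Cbx1 were named after their values were seen. The members and lists were chosen with earlier results of these data known. No gene was picked by likeness of pattern, because 2 libraries give too few values. Alternatives changed windows, joining, overlap and the peaks kept.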

Additional observations from a re-analysis of the deposited data

How the results depend on the processing

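The promoter counts, 9 for Smad3 and 8 for JMJD3, were the same with windows of 2.5 and 5 kb, with peaks taken by coordinates whatever gene they name, and with the Smad3 list cut to the length of the JMJD3 list. With the wider 50% of peaks, Smad3 stayed at 9 and JMJD3 was at 7, Cbx7 and Phc3 lacking it. Peaks in the windows numbered 170 (Smad3) and 100 (JMJD3) within 100 kb, 70 and 34 among the wider 50% of peaks, and 69 Smad3 regions replaced 106 peaks when regions were counted. The share of Smad3 peaks on JMJD3 was 34.0% with a reciprocal overlap of 50% and 41.5% with midpoints within 200 bp, against 37.4% and 47.7% of the whole list. Among the wider 50% of peaks the order turned, with 61.4% in the windows against 59.2% of the whole list. The share of JMJD3 peaks on Smad3 was 69.2% with reciprocal overlap, against 58.2% of the whole list, and 100% among the wider 50% of peaks, against 77.6% of the whole list. Median member widths without joining were 651 bp (Smad3) and 760 bp (JMJD3), so JMJD3 was then the wider by median, and joining at gaps of at most 500 bp gave 1751 bp for Smad3. No paired analysis was possible because each antibody has 1 library. Without heights or read numbers, a gene with no listed peak cannot be told apart from one just under the authors' threshold.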

Other observations

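Among genes that act against or beside PRC1, the H2A deubiquitinase group had Smad3 at 9 of 10 promoters and JMJD3 at 8. All coding genes had them at 55.0% and 43.3%. Asxl2 had Smad3 without JMJD3 (570 bp), and Asxl3 had neither factor within 1 kb. Mbd5 had the widest Smad3 region of this group (1370 bp) and Hcfc1 the widest JMJD3 region (1330 bp). The chromodomain genes of heterochromatin protein HP1, which read methylated H3 lysine 9, had both factors at 3 of 3, against 41.9% of all coding genes. Cbx3 had 2591 bp of Smad3 and 1780 bp of JMJD3, and Cbx5 had 2210 bp and 1780 bp, wider than at Cbx2, Cbx6, Cbx7 or Cbx8, while Cbx1 had 770 bp and 990 bp. These are descriptions of 1 library per antibody, with no test.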
